A study of Mus musculus and Homo sapiens with 9 samples.

Results

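The genes described here are 10 human genes for secreted or membrane-bound T cell messengers: IL26, IL22, IFNG, FLT3LG, LTA, LTB, TNF, IL16, IL32 and IL10. They were taken by symbol from a table of 64252 rows for J.gamma1 cells, in which all 10 had a row. Their mouse counterparts were taken from a table of 43432 rows for splenic T cells, in which 7 of the 8 mouse genes had a row and Flt3l was not analysed here, and mice have no gene for IL26 or IL32. IL26 and FLT3LG were known to be among the genes with the largest rise in the J.gamma1 comparison when the list was drawn up around them, so the list was chosen by their log2 fold changes in that comparison. The J.gamma1 values of the 10 genes are therefore given as a description without a test, and the genes were tested in the mouse table alone.

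RNA-seq was performed on 4 libraries of J.gamma1, a T-ALL cell line derived from Jurkat and known for its lack of the signalling enzyme PLCG1. Of these, 2 carried the non-targeting shRNA sh-NC and 2 carried an shRNA against IRF2BP2 (sh-IRF2BP2), which encodes a transcriptional cofactor. The mouse data were 5 libraries of CD3+ T cells from spleen. The 2 knockout libraries came from Vav-iCre+/-;Irf2bp2fl/fl mice, in which Cre driven by the Vav promoter deletes Irf2bp2 throughout the blood lineage. The 3 control libraries are labelled wild type, and the study's text gives their genotype as Vav-iCre-/-;Irf2bp2fl/fl. The labels name neither the age of the mice nor separate cultures, so p-values measure the spread between these libraries, which may be technical.

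Total counts ranged from 26648204 to 31120236 in J.gamma1 libraries and from 16668577 (control replicate 3) to 37177523 in mouse libraries. Levels are given as CPM, the counts of a gene relative to the library size, after TMM scaling, which balances libraries on the bulk of their genes. IRF2BP2 held 204 and 199 CPM with sh-NC and 79.0 and 93.8 CPM with sh-IRF2BP2, which is -1.22 ± 0.13 on the log2 scale (SE; adjusted p = 0.0023 by edgeR's quasi-likelihood test). Irf2bp2 held 4145, 4594 and 1915 counts in control libraries and 0 counts in both knockout libraries. PLCG1 RNA held 265 and 256 CPM with sh-NC and 316 and 346 CPM with sh-IRF2BP2. All 12 human and all 12 mouse T cell markers examined were detected, with a summed level of 2459 to 2645 CPM with sh-NC and 2685 to 2756 CPM with sh-IRF2BP2.

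Cytokines are short-range protein signals, and each acts on cells that carry its receptor. IL26, IL22 and IL10 belong to the IL10 family, whose receptors share the chain IL10RB in several pairings and signal through JAK kinases to STAT3, whereas IFNG acts through IFNGR1 and IFNGR2. TNF, LTA and LTB form a family of trimers that reach NF-kB through TNF receptors and LTBR, and FLT3LG is the growth factor of FLT3 on blood progenitors and dendritic cells. In T cells, transcription of IFNG and IL10 is known to depend on factors such as TBX21, EOMES, STAT4, MAF and PRDM1.

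The stretch before the transcription start is shown for 3 genes, because IL26, FLT3LG and IFNG were the members with the higher fitted levels under sh-IRF2BP2, and because the stretches differ in composition. They were read from hg38 upstream of the canonical GENCODE 44 start and stop before the first annotated base of any transcript of the gene. Both IL26 and IFNG lie on chromosome 12 on the minus strand, and FLT3LG lies on chromosome 19 on the plus strand. Capitals mark matches, on either strand, to 8 sets of short words: the RUNX words TGTGGT for one site form and TGCGGT for the other, the ETS words CCGGAAG for one form and ACAGGAAG for the other, the T-box word AGGTGTGA, the NFAT word TGGAAA, the AP-1 words TGAGTCA for one strand and TGACTCA for the other, the NF-kB word GGGNNTTCC, the IRF word GAAANNGAA and the TATA word TATAAA.
IL26, chr12:68225811-68226060, minus strand: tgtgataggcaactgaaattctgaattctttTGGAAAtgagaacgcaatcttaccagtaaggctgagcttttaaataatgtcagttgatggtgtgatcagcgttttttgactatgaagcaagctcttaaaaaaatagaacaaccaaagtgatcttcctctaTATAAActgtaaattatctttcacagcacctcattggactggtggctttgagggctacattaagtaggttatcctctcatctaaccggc
IFNG, chr12:68159741-68159990, minus strand: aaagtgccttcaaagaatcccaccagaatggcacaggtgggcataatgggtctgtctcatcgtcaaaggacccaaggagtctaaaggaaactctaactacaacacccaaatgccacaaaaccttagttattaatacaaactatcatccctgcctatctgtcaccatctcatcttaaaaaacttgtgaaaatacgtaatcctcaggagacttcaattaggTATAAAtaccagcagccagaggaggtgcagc
FLT3LG, chr19:49473965-49474206, plus strand: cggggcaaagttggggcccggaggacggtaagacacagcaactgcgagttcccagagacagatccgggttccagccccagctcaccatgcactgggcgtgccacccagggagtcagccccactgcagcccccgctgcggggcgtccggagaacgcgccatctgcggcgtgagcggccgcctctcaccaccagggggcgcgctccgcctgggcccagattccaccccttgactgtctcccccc

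The window of IL26 was poor in G and C (37.6%, with 3 CpG steps over 250 bases), and that of IFNG was similar (42.4% and 2 CpG steps). The full 250-base window of FLT3LG held 68% G and C and 19 CpG steps, against a median of 63.2% over 20033 windows of protein-coding genes. The IL26 window held an NFAT word from -219 to -214 and a TATA word from -89 to -84 relative to the start, the IFNG window held a TATA word from -31 to -26, and the FLT3LG window held none of the words. A TATA word was found in 6 of the 10 genes (IL26, IL22, IFNG, LTA, TNF and IL10), against 9.34% of all windows. Outside IL26 it lay between -31 and -24. These counts, and those below, use the full 250-base windows. The windows of IL16, IL32 and IL10 lie wholly within the annotated span of the gene, and those of FLT3LG, LTA and LTB partly. For the other sets the members' count and the share of all windows were 3 of 10 and 15.4% for RUNX, 3 of 10 and 14.7% for NFAT, 1 of 10 and 13.9% for ETS, and 1 of 10 and 6.61% for NF-kB. No member window held a T-box, AP-1 or IRF word, which 0.804%, 3.07% and 6.14% of all windows held. In mouse, 8 RefSeq windows of 6 members were read (GRCm38.p6, the 250 bases before the start). A TATA word was found in 4 of the 8, against 12.4% of 32851 mouse windows. An NFAT word was found in 3 of 8 (18.6% of mouse windows), an ETS word in 1 (9.58%) and an AP-1 word in 1 (4.46%). RUNX, T-box, NF-kB and IRF words were found in 0 of 8, against 18.6%, 1.12%, 4.98% and 7.13%. These matches describe letters and not binding.

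IL26 (ENSG00000111536, chr12:68201349-68225810 in hg38), a member of the IL10 family made by T cells, had 193 and 235 counts with sh-NC and 1294 and 1167 counts with sh-IRF2BP2. In CPM these were 7.45 and 7.57 against 44.4 and 39.6. The sh-IRF2BP2 libraries lay far above the sh-NC libraries, and the replicates of each group were close together. The ratio of the group means was 5.59, and the log2 fold change was 2.48 ± 0.15 (SE, n = 2 libraries each). In bulk RNA, more cells that express a gene and more RNA per cell cannot be told apart.

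FLT3LG (ENSG00000090554, chr19:49474207-49486231) had 167 and 178 counts with sh-NC and 858 and 811 counts with sh-IRF2BP2. In CPM these were 6.45 and 5.74 against 29.5 and 27.5, so the groups did not overlap. The ratio of the means was 4.68, with a log2 fold change of 2.23 ± 0.17 (SE). A long non-coding RNA on the same strand that overlaps FLT3LG (ENSG00000273189) had 4 and 5 counts with sh-NC and 18 and 43 counts with sh-IRF2BP2, and how reads were divided between them was not tested.

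IFNG (ENSG00000111537, chr12:68154768-68159740), the interferon of activated T and NK cells, had 0 counts in both sh-NC libraries and 13 and 12 counts in the sh-IRF2BP2 libraries. Set against a limit of 3 counts over both sh-NC libraries together, IFNG was at least 8.1-fold higher with sh-IRF2BP2. This bound takes the sh-IRF2BP2 counts as exact and leaves out their counting error. The level with sh-IRF2BP2 was 0.446 and 0.407 CPM. IFNG passed the filter on low counts through the sh-IRF2BP2 libraries alone. IL22, which acts on epithelial cells and lies beside IL26 at chr12:68248242-68253604, had 0 and 0 counts with sh-NC and 2 and 0 with sh-IRF2BP2, too few for a fold. The antisense gene IFNG-AS1, which spans IFNG and IL26 on the other strand, had 0 counts in all 4 libraries.

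The other 6 genes overlapped between the groups or had few counts. IL32 (chr16:3065297-3082192), an intracellular and secreted inducer of inflammatory cytokines, held 163 and 264 CPM with sh-NC and 133 and 223 CPM with sh-IRF2BP2. The groups overlapped, replicate 2 was the higher library in both groups, and at each replicate number the sh-IRF2BP2 library was the lower. Its log2 fold change was -0.26 ± 0.28 (SE), and it lay between -0.69 and 0.12 when a library was left out. IL16 (chr15:81159575-81314058), whose processed C-terminal part attracts CD4+ cells, held 18.8 and 12.7 CPM with sh-NC and 12.9 and 17.6 CPM with sh-IRF2BP2, with a log2 fold change of -0.04 ± 0.24 (SE). Its groups overlapped too, and without single libraries the value ran from -0.30 to 0.26. STARD5 overlaps IL16 on the opposite strand, with 99 and 384 counts with sh-NC and 247 and 372 counts with sh-IRF2BP2, and strand use in the counting is not stated in the sources used here.

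The TNF family genes in the MHC region of chromosome 6 were near the lower end of detection. LTA (chr6:31572054-31574324) had 13 and 16 counts with sh-NC and 12 and 12 with sh-IRF2BP2 (log2 fold change -0.31 ± 0.55, SE). TNF (chr6:31575565-31578336) had 1 and 1 counts with sh-NC and 3 and 3 with sh-IRF2BP2, a ratio of 2.91 with a 95% counting interval of 0.521 to 29.5. LTB (chr6:31580525-31582522) had 0 counts in all 4 libraries, which allows up to 0.0967 to 0.116 CPM per library. The table holds 8147 rows without an annotated identifier, with 1.99% of the counts. Whether copies of these 3 genes on alternate haplotypes took reads was not tested, so their counts are lower limits. IL10 (chr1:206767602-206774541), the family's anti-inflammatory member, had 4 and 0 counts with sh-NC and 5 and 5 with sh-IRF2BP2, a ratio of 2.43 with a counting interval of 0.7005 to 10.6. Both intervals cover counting error only.

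**Figure D1:**
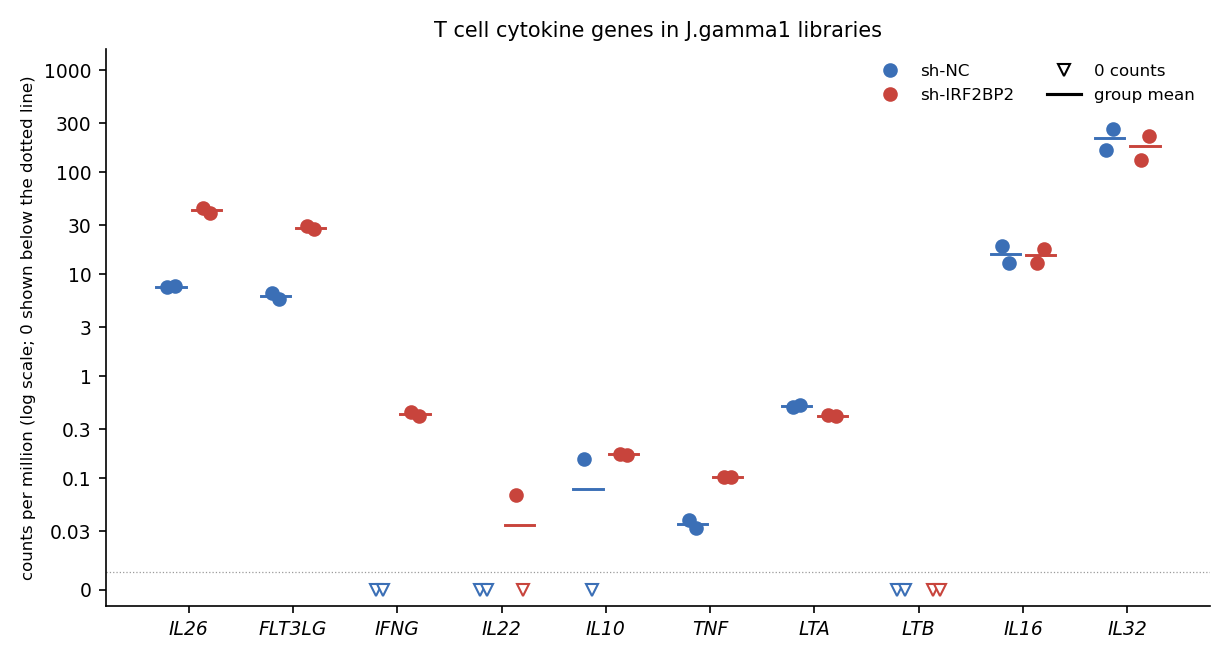
Level of each of the 10 genes in each J.gamma1 library in CPM on a log scale, with sh-NC in blue and sh-IRF2BP2 in red; lines are group means over 2 libraries and open triangles are libraries with 0 counts. IL26 and FLT3LG stand apart between the groups at 7.51 against 42 and 6.09 against 28.5 CPM on average, IFNG appears in the sh-IRF2BP2 libraries alone, and IL16 and IL32 overlap.

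Per kilobase of exon, the sh-NC levels ran from IL32 (66.7 ± 22.3 CPM per kb, SD, n = 2) through IL26 (7.05 ± 0.08), FLT3LG (2.14 ± 0.18), IL16 (1.26 ± 0.34) and LTA (0.293 ± 0.006) to TNF (0.0211 ± 0.0027) and IL10 (0.0178 ± 0.0252), with IL22, IFNG and LTB at 0. The libraries of neighbouring genes in this order did not overlap from IL32 down to LTA, nor between LTA and TNF, and they overlapped below that. With sh-IRF2BP2, IL26 held 41.7 and 37.1 CPM per kb, and IL32 held 41.4 and 69.6 CPM per kb.

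Of the 10 members, 6 passed the filter on low counts (IL26, IFNG, FLT3LG, LTA, IL16 and IL32). In 4 of the 6 that passed, the groups did not overlap, which held for 58.3% of all genes tested. For IL26 and FLT3LG this restates how the list was chosen, and IFNG passed the filter through its sh-IRF2BP2 libraries, so nothing is read from the count.

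Over the 4 J.gamma1 libraries, the gene whose profile lay nearest to that of IL26 among 13386 genes of at least 1 CPM on average was FLT3LG, at a distance of 0.293 on the log2 CPM scale after centring each gene. It was followed by CDRT4 (0.336), IL4I1 (0.344), TRIB2 (0.368) and CC2D2A (0.405). Nearest to FLT3LG were RORA (0.236), TRIB2 (0.259), IL26 (0.293), CC2D2A (0.303) and TWF1P1 (0.347). TRIB2, a pseudokinase known in leukaemia, held 46.0 and 51.5 CPM with sh-NC and 214 and 217 CPM with sh-IRF2BP2. IL4I1, a secreted amino acid oxidase of immune cells, was much lower, at 0.579 and 0.548 CPM against 4.81 and 3.87 CPM. With 2 libraries in each of 2 groups, nearness reflects mainly a step of like size between the groups. IL26 and FLT3LG were both listed for such a step, so their nearness partly restates that choice.

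The genes that lie around the members on the chromosomes were then examined. Of 36 protein-coding genes, 3 on each side of 6 loci, 23 were tested, 0 were called higher and 2 lower (a log2 change of at least 0.5 with an adjusted p below 0.05), with a median log2 fold change of -0.11. Over all 15819 genes tested 5.46% were called higher and 5.01% lower, so counts of this size among 23 genes are near the background. The 2 lower ones were TLNRD1 near IL16 (-0.60 ± 0.13, adjusted p = 0.026) and THOC6 near IL32 (-0.84 ± 0.17, adjusted p = 0.021), by edgeR's quasi-likelihood test. MDM1, the nearest coding gene beyond IL22, had 989 and 1110 counts with sh-NC and 857 and 994 with sh-IRF2BP2 (-0.23 ± 0.14, adjusted p = 0.32). DYRK2, on the other side of IFNG, had 1668 and 1354 counts with sh-NC and 2441 and 2567 with sh-IRF2BP2, and it missed the threshold (0.66 ± 0.18, adjusted p = 0.054). Beside FLT3LG, the ribosomal protein gene RPL13A was not called (-0.11 ± 0.16, adjusted p = 0.70).

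**Figure D2:**
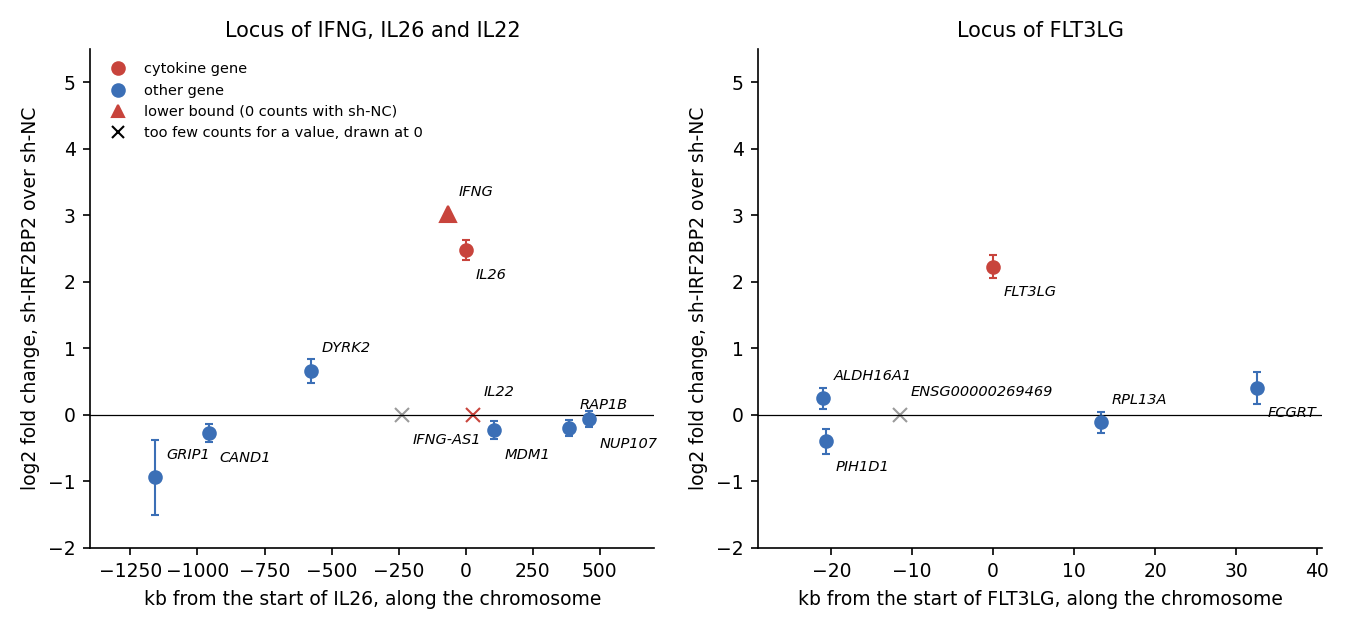
Log2 fold change in J.gamma1 cells (sh-IRF2BP2 over sh-NC) of the genes at 2 loci against the distance of their start from that of IL26 (left) or FLT3LG (right) in kb; bars are SE, cytokine genes are red, the triangle for IFNG is its lower bound of 3.02, and crosses are genes with too few counts for a value. IL26 (2.48) and FLT3LG (2.23) stand above all neighbours drawn, of which DYRK2 is the highest at 0.66. IL26 and FLT3LG were chosen for their rise in this comparison, so their place above the neighbours restates that choice. The bound for IFNG takes its sh-IRF2BP2 counts as exact.

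The genes that receive, transmit and answer these signals, other cytokine genes and regulators of cytokine genes were followed as 5 lists of 114 human genes. Of these, 77 were tested in J.gamma1 cells, and 17 were called higher and 2 lower, beside the same 5.46% and 5.01% over all genes. The median log2 fold change was 0.23 against 0.01 over all genes tested. The lists were written with earlier results of these data known. Nothing is therefore read from these counts, the median or the counts per list below, in either species. When sh-IRF2BP2 replicate 2 was left out, 9 were called higher. The adjusted p-values of listed genes come from edgeR's quasi-likelihood test and were corrected by the Benjamini-Hochberg method across the whole table.

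Of 14 receptor genes, 11 were tested and 0 were called, with a median log2 fold change of -0.10. IL20RA, the specific chain of the IL26 receptor, had 0 counts in all 4 libraries, while the shared chain IL10RB held 27.6 and 37.9 CPM with sh-NC and 31.7 and 36.9 CPM with sh-IRF2BP2 (0.06 ± 0.18, adjusted p = 0.85). IL10RA, the specific chain for IL10, had 60 and 64 counts against 97 and 209 (1.25 ± 0.39, adjusted p = 0.083). FLT3, the receptor of FLT3LG, had 29 and 38 counts with sh-NC and 6 and 19 counts with sh-IRF2BP2 (-1.45 ± 0.61, adjusted p = 0.17). Neither interferon gamma receptor chain was called, with IFNGR1 at 0.29 ± 0.13 (adjusted p = 0.21) and IFNGR2 at -0.11 ± 0.22 (adjusted p = 0.80). The TNF receptor gene TNFRSF1A was at 0.35 ± 0.12 (adjusted p = 0.096), and LTBR had 5 counts in 1 sh-IRF2BP2 library and 0 in the rest.

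Of 11 signal transducers, all tested, 4 were called higher and 1 lower. MAP3K14, the NF-kB-inducing kinase of the non-canonical pathway, rose from 17.4 and 16.3 CPM to 50.5 and 43.3 CPM (1.48 ± 0.14, adjusted p = 0.0017). TRAF3, the adaptor that brings about degradation of this kinase, fell from 131 and 112 CPM to 70.4 and 67.5 CPM (-0.81 ± 0.13, adjusted p = 0.0080). STAT3 rose by 0.62 ± 0.12 (adjusted p = 0.018) and the kinase JAK1 by 0.61 ± 0.12 (adjusted p = 0.017), and both lost the call when either sh-IRF2BP2 library was left out (adjusted p of 0.086 to 0.11). TYK2, another JAK kinase, was at -0.43 ± 0.11 (adjusted p = 0.052).

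Of 18 genes known as targets of interferon gamma, STAT3 or NF-kB, 15 were tested, and 4 were called higher and 0 lower. BCL3, a nuclear IkB protein, had 4 and 2 counts with sh-NC and 60 and 52 counts with sh-IRF2BP2 (4.11 ± 0.59, adjusted p = 0.0060). GBP1, a GTPase induced by interferons, rose from 21.3 and 20.2 CPM to 58.6 and 61.9 CPM (1.54 ± 0.13, adjusted p = 0.0011). BIRC3, an inhibitor of apoptosis, rose by 0.75 ± 0.14 (adjusted p = 0.016, and 0.078 without sh-IRF2BP2 replicate 2). IRF1 was at the edge, at 0.50 ± 0.13 (adjusted p = 0.049), and it lost the call in 9 of 13 alternatives, among them the removal of sh-NC replicate 1 (0.37) and of either sh-IRF2BP2 library (adjusted p of 0.26 and 0.12). TNFAIP3 lay just outside the fold threshold, at 0.498 ± 0.117 (adjusted p = 0.034). The chemokine genes CXCL9 and CXCL10, which interferon gamma induces in many cells, had 0 counts in every library.

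Of 42 other cytokine genes, 15 had 0 counts in every library and 14 were tested, with 2 called higher and 1 lower. CD40LG, the membrane ligand by which T helper cells activate B cells, rose from 17.6 and 18.9 CPM to 56.1 and 53.6 CPM (1.58 ± 0.13, adjusted p = 0.0011). TGFB1 rose by 0.54 ± 0.14 (adjusted p = 0.043). That call was lost in 5 of 13 alternatives, among them the removal of sh-NC replicate 1 (0.42) and of either sh-IRF2BP2 library. TNFSF4, the ligand of OX40, fell from 8.30 and 5.35 CPM to 2.095 and 1.80 CPM (-1.81 ± 0.32, adjusted p = 0.013).

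Of 29 regulators of cytokine genes, 26 were tested, and 7 were called higher and 0 lower. MAF, a bZIP factor that drives IL10, had 3 and 8 counts with sh-NC and 266 and 383 counts with sh-IRF2BP2 (5.82 ± 0.42, adjusted p = 0.00076). EOMES, a T-box factor that acts on IFNG, rose from 11.8 and 11.3 CPM to 112 and 119 CPM (3.32 ± 0.13, adjusted p = 0.0001), and it was already known as a leading riser when the list was written. RORA, a nuclear receptor that acts in the IL17 lineage and in innate lymphoid cells, rose by 2.07 ± 0.15 (adjusted p = 0.00080). STAT4, the transducer of IL12, rose by 1.55 ± 0.28 (adjusted p = 0.013), and PRDM1, a repressor in effector and plasma cells, rose by 1.38 ± 0.29 (adjusted p = 0.024). The other two were REL (0.85, adjusted p = 0.043) and RUNX1 (0.66, adjusted p = 0.032). PRDM1 and RUNX1 lost the call without either sh-IRF2BP2 library (adjusted p of 0.062 to 0.19), and REL lost it without sh-IRF2BP2 replicate 2 (adjusted p = 0.081). BHLHE40 had 129 and 143 counts in the replicates numbered 1 and 1519 and 2414 counts in those numbered 2, so its groups overlapped.

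**Figure D3:**
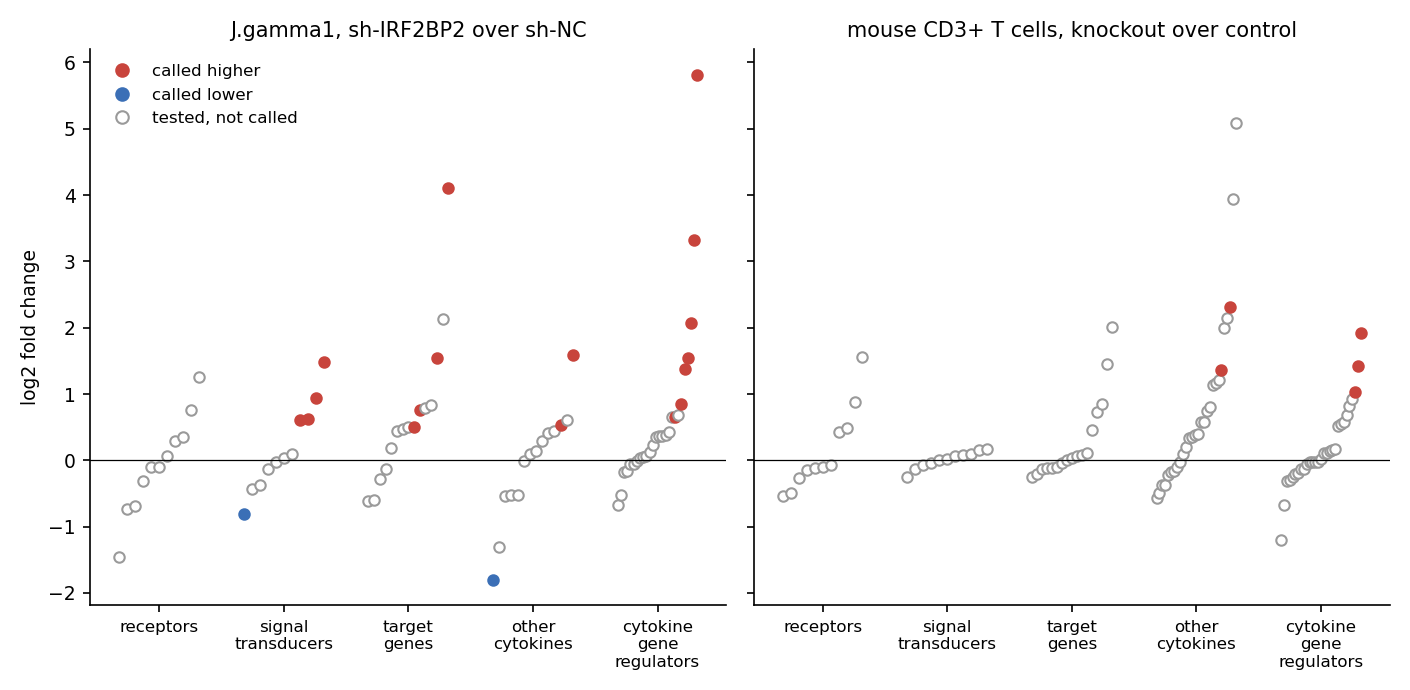
Log2 fold change of each tested gene of the 5 lists, sorted within each list, in J.gamma1 cells (left) and in mouse T cells (right); filled points are called and open points are not. In J.gamma1 cells called genes lie in every list but the receptors, with MAF at 5.82 the highest, and in mouse T cells the 5 called genes lie among the other cytokines and the regulators.

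In mouse T cells, none of the 8 genes was called: 7 had a row, 6 were tested, and edgeR's quasi-likelihood test called 0 by the mouse rule (a log2 change of 1 or more and an adjusted p below 0.05), where 2.58% of the 15350 genes tested were called. At an unadjusted p under 0.05 there were 5 of 6 (Ifng, Lta, Ltb, Il16 and Il10), against 16.2% of all genes tested. DESeq2 called 2 of the 6, Ifng and Il10, against 5.19% of all genes. In 5 of the 6 the groups did not overlap, which held for 36% of all genes.

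Ifng (ENSMUSG00000055170, chr10:118441046-118445892 in mm10) had 102, 77 and 76 counts in control libraries and 314 and 466 counts in knockout libraries. In CPM these were 2.75, 2.13 and 4.75 against 8.198 and 13.1, with both knockout libraries above every control. The log2 fold change was 1.75 ± 0.41 (SE), with an adjusted p of 0.086 by edgeR's quasi-likelihood test and 0.0021 by DESeq2. Over all alternatives its adjusted p ran from 0.0021 to 0.56, and it passed the threshold by edgeR when control replicate 3 was left out (2.12, adjusted p = 0.041).

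Il10 (ENSMUSG00000016529, chr1:131019845-131024974) had 4, 34 and 13 counts in control libraries and 166 and 129 counts in knockout libraries, or 0.108, 0.940 and 0.813 CPM against 4.33 and 3.63 CPM. The groups were well apart, although control replicate 1 lay far below the other controls. The log2 fold change was 2.71 ± 0.75 (SE), with an adjusted p of 0.14 by edgeR and 0.017 by DESeq2, and a range of 0.017 to 0.53 over the alternatives. Il22, beside Ifng on chromosome 10, had 0 counts in the controls and in knockout replicate 1 and 5 counts in knockout replicate 2. These counts were too few for a fold and rested on that 1 library.

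The lymphotoxins were lower in the knockout libraries without passing the threshold. Lta (chr17:35203165-35205351), the soluble member, held 16.1, 15.0 and 16.0 CPM in control and 9.50 and 7.91 CPM in knockout libraries (-0.85 ± 0.20, adjusted p = 0.085). Ltb (chr17:35194439-35196320), its membrane partner, held 583, 574 and 510 CPM against 396 and 379 CPM (-0.52 ± 0.13, adjusted p = 0.11). Both had the knockout libraries below every control. DESeq2 gave them adjusted p-values of 0.0018 and 0.0026 at folds below the threshold of 1. Tnf (chr17:35199381-35202007), which lies between them, held 19.0, 18.3 and 7.88 CPM against 12.1 and 6.96 CPM, so the groups overlapped (-0.67 ± 0.43, adjusted p = 0.53). Il16 (chr7:83642825-83745726) held 400, 435 and 394 CPM against 337 and 314 CPM (-0.33 ± 0.13, adjusted p = 0.27), and Stard5 overlaps it on the other strand.

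Per kilobase of exon, the control levels ran in the order Ltb (367 ± 26.5 CPM per kb, SD, n = 3), Il16 (52.1 ± 2.81), Lta (11.3 ± 0.45), Tnf (9.19 ± 3.80), Ifng (2.48 ± 1.06), Il10 (0.474 ± 0.342) and Il22 (0). The libraries of Lta and Tnf overlapped, and no other neighbours in this order did. Ltb was thus the highest of the mouse members with a row, whereas LTB had 0 counts in J.gamma1 cells. That 0 is a lower limit, since reads on alternate haplotypes were not tested. A readthrough gene that spans Flt3l (Gm45713, named after its values were seen) had 4326, 3175 and 2247 counts in control and 3260 and 3485 counts in knockout libraries. In CPM these were 117, 87.8 and 141 against 85.1 and 98.2, so the groups overlapped (-0.33 ± 0.21, adjusted p = 0.52 by edgeR's quasi-likelihood test). Reads of Gm45713 cannot be told apart from those of Flt3l.

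**Figure D4:**
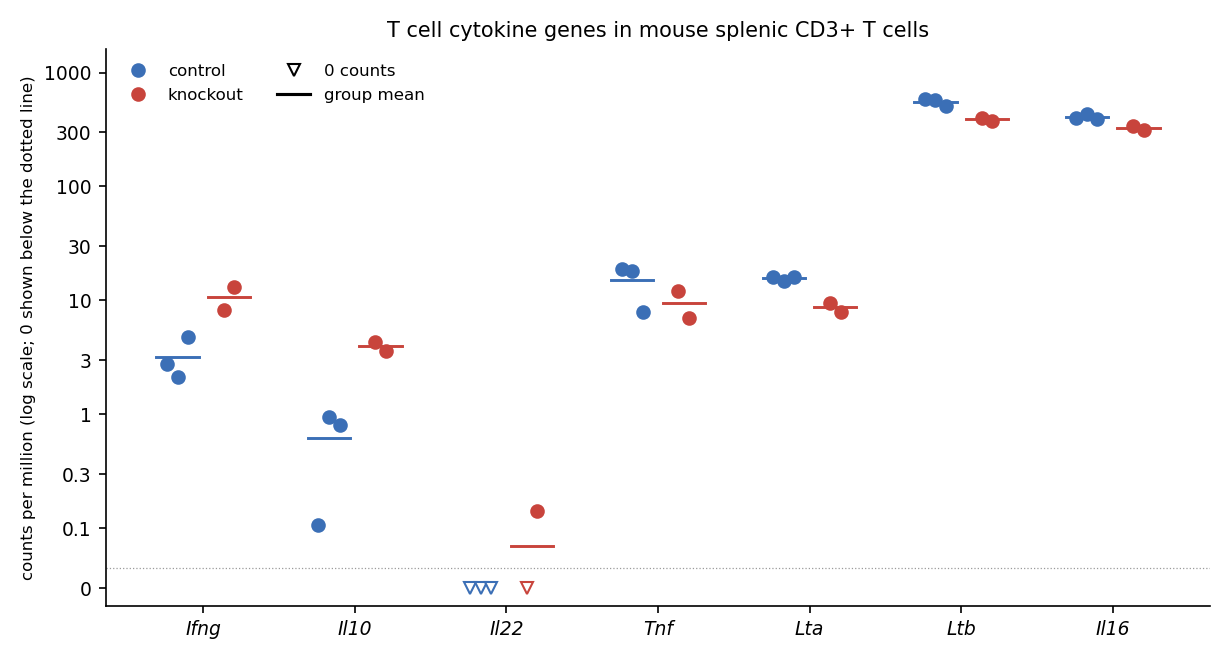
Level of each mouse member with a row in each library of splenic CD3+ T cells in CPM on a log scale, with control in blue and knockout in red; lines are group means over 3 and 2 libraries and open triangles are libraries with 0 counts. The knockout libraries lie above the controls for Ifng and Il10 and below them for Lta, Ltb and Il16, and Tnf overlaps.

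Erythroid markers were higher in the knockout libraries, and markers of other cell types were examined beside them. The summed level of 12 T cell markers was 5987 to 7044 CPM in controls and 4789 to 5052 CPM in knockout libraries, with 0 of 12 called and a median log2 fold change of -0.40. The 11 erythroid markers with a row summed to 602 to 2272 CPM in controls and 4502 to 6317 CPM in knockout libraries, with 5 called higher and a median of 2.48. Plasma cell markers (6 genes, 0 called) summed to 423 to 1164 and 1138 to 1506 CPM, with a median log2 fold change of 0.65. NK cell markers (7 genes, 0 called) summed to 33.4 to 70.2 and 58.1 to 169 CPM, but their median log2 fold change was -2.28. Gzma (1.92) and Klrk1 (0.95), which activated T cells also express, carried the higher sum, whereas the NK receptor genes Ncr1, Klra4, Klra7 and Klra8 lay between -4.37 and -2.28 and Klrb1c at -0.41. B cell markers (8 genes, 0 called) summed to 29.97 to 249 and 29.8 to 111 CPM (median -1.15), and myeloid markers (10 genes, 0 called) to 45.8 to 425 and 101 to 157 CPM (median -0.56). No marker was at 0 in every library. Their part in the values of Ifng, Il10, Lta, Ltb and Il16 was not tested.

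Of 111 mouse genes in the same 5 lists, 96 were tested, and 5 were called higher and 0 lower, where 2.47% of all genes tested were called higher and 0.111% lower. Ccl4, a chemokine of activated T and NK cells, had 50, 97 and 27 counts in control and 357 and 345 counts in knockout libraries (2.31 ± 0.35, adjusted p = 0.025). Ccl5, a chemokine of memory and cytotoxic T cells, rose from 96.1, 80.4 and 81.1 CPM to 175 and 268 CPM (1.37 ± 0.20, adjusted p = 0.022). Maf rose from 44.2, 38.3 and 38.6 CPM to 74.6 and 91.3 CPM (1.04 ± 0.14, adjusted p = 0.019), and Prdm1 from 14.1, 8.80 and 9.82 CPM to 30.2 and 28.4 CPM (1.42 ± 0.24, adjusted p = 0.032). Bhlhe40, a factor that raises Ifng and represses Il10 in T cells, rose by 1.92 ± 0.35 (adjusted p = 0.042). All 5 lost the call when control replicate 1 or knockout replicate 2 was left out, at adjusted p-values of at least 0.063. Without knockout replicate 1 the count was 1 and without control replicate 3 it was 3.

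Among receptors, 0 of 11 tested were called. Il10ra came nearest, from 53.1, 46.0 and 40.2 CPM to 89.3 and 82.5 CPM (0.89 ± 0.15, adjusted p = 0.034), a fold under the threshold. Flt3 was at 1.56 ± 0.61 (adjusted p = 0.27) and Il22ra1 had 0 counts in all 5 libraries. No signal transducer (11 tested) and no target gene (17 tested) was called, with medians of 0.01 and 0.04. Some genes were high in knockout replicate 2 above all. Among them, Tnfaip3 held 841 CPM there, against 125 CPM in knockout replicate 1 and 71.9 to 200 CPM in controls, and Junb held 771 CPM against 142 to 472 CPM in the other 4 libraries. Gzma held 115 CPM there, against 36.2 CPM in knockout replicate 1 and 9.32 to 25.2 CPM in controls, and Il17a had 49 counts against 0 to 5 in the other 4 libraries.

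There were 19 listed genes called in J.gamma1 cells and 5 called in mouse T cells. MAF and PRDM1 were called higher in both (10.5% of the former and 40% of the latter). Calls needed a log2 change of 0.5 in J.gamma1 cells and of 1 in mouse T cells. The share of all genes called in both was not computed, so nothing is read from these percentages. EOMES, which rose in J.gamma1 cells, was at -0.03 ± 0.16 in mouse knockout cells (adjusted p = 0.96). MAP3K14 was at -0.13 ± 0.14 (adjusted p = 0.74), CD40LG at 0.09 ± 0.25 (adjusted p = 0.91) and BCL3 at -0.25 ± 0.52 (adjusted p = 0.87) in the mouse table. The difference between the 2 systems was not tested.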

How the data were processed

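Reads were aligned with HISAT2 2.2.0 to hg38 (human) or mm10 (mouse) and quantified with StringTie, and the authors deposited raw whole-number counts for each Ensembl gene. How abundance became counts, the annotation release and the use of strand are not given in the sources used here. Rows were matched to GENCODE 44 and M21, and unmatched rows were left out (1.99% of the human and 0.180% of the mouse counts). Each table was filtered with filterByExpr and TMM-scaled, and the condition alone was tested with edgeR 4.0.16 (quasi-likelihood) in R 4.3.3 with Benjamini-Hochberg adjustment. Calls needed an adjusted p below 0.05 with a log2 change of 0.5 (human) or 1 (mouse). Replicates differed by more than sampling noise (chi-square per gene of at least 20.0). The members and lists were chosen with earlier results of these data known. Named were all members, the called genes of each list (at most the 5 largest each way), receptors, locus neighbours and the 5 nearest profiles, and further genes were picked with their values known. Alternatives, DESeq2 1.42.0 among them, are described with their effects, and the scripts were tested on simulated data. Some items that met these criteria are not reported here.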

Additional observations from a re-analysis of the deposited data

How the results depend on the processing

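The fold changes of IL26 and FLT3LG stayed between 2.37 and 2.56 and between 2.14 and 2.31 over 13 alternatives each: DESeq2, RLE and upper-quartile scaling, other filters, counts divided by 2, rows summed by symbol, no fold threshold, the replicate block and each library left out. No called value changed sign. With a filter of 1 count in any library, 319 genes were called higher and 396 lower in J.gamma1 cells (864 and 793 otherwise) and 9 listed genes were higher (17 otherwise), with 27082 genes tested. With 1 library left out the 3 counts ran from 418 to 1608, from 419 to 1143 and from 9 to 21. For mouse cells, DESeq2 called 733 genes higher and 64 lower (379 and 17 otherwise) and 2 members; the cause was not tested. With 1 mouse library left out, the counts ran from 6 to 532 higher, from 1 to 35 lower, from 0 to 5 listed genes and from 0 to 1 members. The lone library that remained in a group was assumed to vary like the others. With the replicate number as a block, 1293 and 1174 J.gamma1 genes and 20 and 3 listed genes were called, and 407 and 35 mouse genes, 4 listed genes (Bhlhe40 was lost) and 0 members. Same-numbered libraries deviated together in J.gamma1 cells (correlation 0.225, a single value, since 2 libraries per group make both pairs alike). In the mouse libraries they did not throughout (0.151 and -0.161). The library titles give replicate numbers and state no pairing, so the main model held the condition alone. Whether the J.gamma1 libraries were made in pairs was not tested. Over single genes, 414 values kept their direction and side of the threshold, 47 lost a call, 3 gained one (Ifng with DESeq2 and without control replicate 3, and Il10 with DESeq2) and 7 moved without a test (IL16 and IL32). With 2 or 3 libraries in a group no outlying library could be tested, and levels near 3 counts (about 0.1 CPM) bear no comparison.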
